A study of Caenorhabditis elegans with 2 samples.

Results

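Homeobox genes encode transcription factors that bind DNA through a homeodomain, and they are described here for the regions recovered at their promoters with UNC-130, a forkhead transcription factor. Members were taken by gene name: the set held the 63 protein-coding genes of the WBcel235 annotation (Ensembl release 115) whose name starts with ceh-, and 16 homeobox genes with other names, such as lin-39, pal-1 and unc-86. These are 79 of 19973 protein-coding genes on the nuclear chromosomes. The annotation gives ceh-44 no entry of its own, and the start that RefSeq gives it is listed under cone-1; it was counted separately.

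Binding was mapped by ChIP-seq, the sequencing of DNA fragments recovered by chromatin immunoprecipitation, in whole young adult Caenorhabditis elegans hermaphrodites of strain AGK541. Their age was 56 hours past the point at which bleached, starved first-stage larvae had been synchronized. The worms carried the armSi1 insertion on chromosome II, in which the germline promoter of mex-5 drives UNC-130 fused to green fluorescent protein (GFP) with the 3′ UTR of tbb-2, together with a Caenorhabditis briggsae unc-119(+) marker. They also carried the unc-119(ed3) allele on chromosome III and niDf199 on chromosome IV, and a note among the labels adds a FLAG tag at the C terminus of the fusion. The series held 1 group of 2 biological replicates, so every worm carried these alleles and no second condition existed. Anti-GFP antibody was used for the precipitation, although a second label field names unc-130 as the antibody, and the cells of the worm in which the fusion was made were not measured. Chromatin of whole animals was used, so the fraction of nuclei with a region and the strength of binding per nucleus cannot be told apart.

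Homeodomain proteins act in cascades that fix body regions and cell identity. In the worm the Hox genes pattern the body from head to tail, LIM, POU and paired-like genes act as selectors of neuron types, and TALE proteins serve as partners of Hox proteins. A few members act in or near the germ line: pal-1 messenger RNA is stored in oocytes and its protein directs posterior fates in the embryo, and ceh-18 acts in the gonadal sheath.

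For each gene the region with the highest signal value and its summit in the promoter window was taken. This window reached 1000 bp upstream of each transcript start of the gene and 200 bp past it. Candidate regions, in which peaks and background are listed together, numbered 21622 in replicate 1, 20625 in replicate 2 and 22106 with both replicates pooled, and 1168 optimal peaks remained after the authors' threshold, all on the ce11 build. Read depth is unknown because none of these lists gives counts, and each interval around a share of genes is a 95% Wilson interval for the counting of genes alone. The signal value comes from the authors' peak calling in an unnamed unit and is comparable within a list. For that reason positions in a list are given as a rank percentile, the share of entries of that list with a value at or below that of the region. The percentile of the lowest optimal value in the pooled list is marked in the plot of percentiles by gene.

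None of the 79 homeobox genes had an optimal peak with its summit in the promoter window (0%, interval 0 to 4.64). Among all protein-coding genes the share was 5.29%, from 1056 of 19973. The shares of all genes differed between chromosomes, from 0.806% on chromosome X to 9.73% on chromosome III, and with each chromosome weighed by its number of homeobox genes the share of all genes was 5.01%. Off chromosome X, 0 of 57 homeobox genes had an optimal peak against 6% of all genes, and among genes with 1 transcript start it was 0 of 54 against 4.35%. Among genes with any pooled promoter region it was 0 of 26 against 14.5%. Promoter windows that overlapped no window of another gene made up 82.3% of homeobox windows and 63.9% of all; 2.41% of all genes with such a window had an optimal peak and 0 of 65 homeobox genes. What part chromosome and neighbouring genes have in the count of 0 was not tested.

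Candidate regions were present at homeobox promoters at a share close to the background. In the pooled list 26 of the 79 genes had one, 32.9% (interval 23.6 to 43.9), against 36.4% of all genes. Weighed by chromosome the share of all genes was 35.95%. Off chromosome X it was 19 of 57 (33.3%) against 38.3%, and among genes with 1 start 15 of 54 (27.8%) against 30.9%. Among genes whose window overlapped no other, it was 32.3% for homeobox genes, from 21 of 65, against 30.9%. The replicate 1 list had a region at 21 homeobox promoters (26.6%, against 34.9% of all genes) and that of replicate 2 at 23 (29.1%, against 34.2%). Either list had one in 33 genes (41.8%, against 46.4%) and both had one in 11 (13.9%, against 22.7%), while 43 genes had a promoter region in none of the 3 lists (54.4%, against 51.1%).

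The homeobox regions lay lower in the list than those of genes at large. Over the 26 genes the signal ran from 12.1 to 50.7 with a median of 16.6, whereas the best promoter regions of all 7272 genes with one had a median of 21.4 and quartiles of 15.4 and 36.5. The median rank percentile was 49.4 against 70.8, so the homeobox regions lay around the middle of the list of candidates. In the lists of the replicates the medians were 51.9 against 69.5 in replicate 1 and 44.96 against 67.8 in replicate 2. Of the 79 genes 6 had a region at or above percentile 75 (7.59%), against 16.5% of all genes, and 13 had one at or above percentile 50 (16.5%), against 24.8%. The median percentile was 39.2 over the 78 nuclear hormone receptor genes with a pooled region and 66.6 over 8 homeobox genes outside the set. Over 8 forkhead genes it was 60.04. A lower level was therefore not particular to the homeobox genes of the set, and those outside the set lay closer to all genes. What part chromosome and neighbouring genes have in these levels was not tested. These shares are descriptions, since genes are not replicates and the design holds no second condition.

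**Figure D1:**
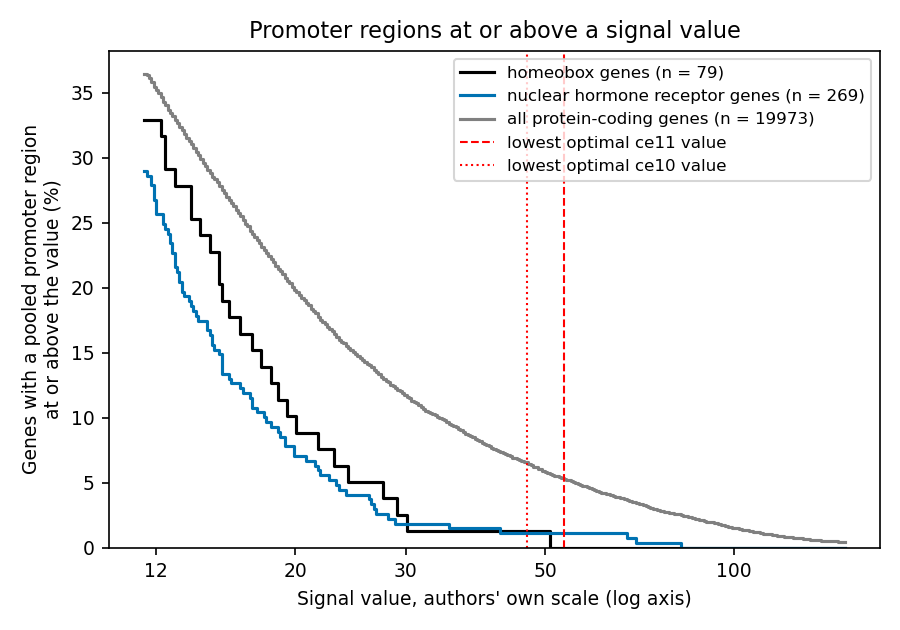
Share of genes (vertical axis, %) with a pooled promoter region at or above a signal value (horizontal axis, log scale, the authors' own unit), for 79 homeobox genes, 269 nuclear hormone receptor genes and all 19973 protein-coding genes. Vertical lines mark the lowest optimal value on ce11 (53.5) and on ce10 (46.8, from another list whose scale may differ). The black line starts near the grey one, at 32.9% against 36.4%, and ends before the ce11 line, at 50.7.

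The stretches of DNA below are shown as examples from named genes, with a string of cell cycle factors, a string of homeodomain proteins, or none of those searched. They are not the highest regions in order: ceh-2, ceh-91, ceh-38, ceh-21 and ceh-5 are not shown, nor are ceh-51 and ceh-18, which had none of the strings. Each is 30 bases of the plus strand of WBcel235, 5′ to 3′, read from the RefSeq genome. Where a string was found the stretch is centred on it, and those of ceh-39 and ceh-58 lie beside the summit and do not include it. In ceh-92 and ceh-39 the capitals mark a string of the E2F type, in ceh-58 the homeodomain core string TAATTA, and in pal-1 and nob-1, where no searched string was found within 100 bp of the summit, the summit base. They lie at chrIII:11581561-11581590, chrX:1856373-1856402, chrII:10369495-10369524, chrIII:4807887-4807916 and chrIII:12085058-12085087, in this order. The ceh-58 and pal-1 stretches are in exons and the others upstream of their gene.
ceh-92: tactctgtgtttTTCCCGCaaacaccgtca
ceh-39: cgtaaatttcggGCGGGAAaaggggggaat
ceh-58: tcaccaattgatTAATTAttggcccgatca
pal-1: gcttcacatcaacggCttctactgctggaa
nob-1: agcagaaaggaggacActacataacacgca

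The homeobox gene with the highest signal was ceh-2, a homolog of the empty spiracles gene of flies. Its region, I:6051018-6051447 with the summit 782 bp upstream of the start, had a pooled signal of 50.7 and stood at rank 1291, below the 1168 optimal entries and the lowest optimal value of 53.5. In replicate 1 the signal was 39.5, at percentile 96.9, and in replicate 2 it was 12.2, at percentile 66.7, a gap of 30.2. Over the 10 homeobox regions matched in both replicate lists this gap ran from 8.31 for ceh-83 to 67.6 for ceh-38. It was the single homeobox gene among the 1168 best regions of replicate 1 (1.27%, against 5.11% of all genes), and there was none among those of replicate 2 (against 5.22%). In the ce11 pooled list it was also the 1 homeobox gene at or above 46.8, a level that 6.46% of all genes reached. This level is the lowest optimal value of the ce10 list, whose scale may differ. The summit lay inside a tRNA gene, WBGene00022946 (I:6051155-6051236), and inside the noncoding gene C27A12.12 that spans it. Of the 26 homeobox regions this was the 1 with a summit within 200 bp of a tRNA gene (3.85%), as against 118 of the 7272 regions of all genes (1.62%); whether the signal comes from the tRNA gene or from ceh-2 was not tested. The nearest start of another protein-coding gene, that of ari-1.3, was 4588 bp away.

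The next 3 homeobox genes lay on chromosome III, each far below the optimal level. The divergent homeobox gene ceh-91 had a region at III:11615590-11616019, 941 bp upstream of its start, with a pooled signal of 30.1. The regions overlapping it had a signal of 19.98 in replicate 1, at percentile 87.6, and 9.80 in replicate 2, at percentile 43.6. The region of ceh-92, another divergent homeobox gene, was at III:11581357-11581786 with a pooled signal of 27.5, at percentile 89.6 in replicate 1 and 39.8 in replicate 2. Its summit lay 28 bp upstream of the ceh-92 start and also in the window of Y66D12A.6, whose start was 170 bp away.

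The region of pal-1, the caudal homolog, lay at III:4807687-4808116, with its summit in an exon 192 bp downstream of the nearest of 5 starts, and had a pooled signal of 29.03 at percentile 84.7. The regions overlapping it had a signal of 16.96 in replicate 1, at percentile 82.7, and 9.91 in replicate 2, at percentile 44.96. As for ceh-2, ceh-91 and ceh-92, replicate 1 placed it higher in its list than replicate 2. For comparison, mex-5, the germline gene whose promoter is part of the transgene, had a pooled signal of 134.7 (67.9 in replicate 1 and 67.8 in replicate 2), so its region was high in both lists; sequences of the transgene itself can contribute to it.

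**Figure D2:**
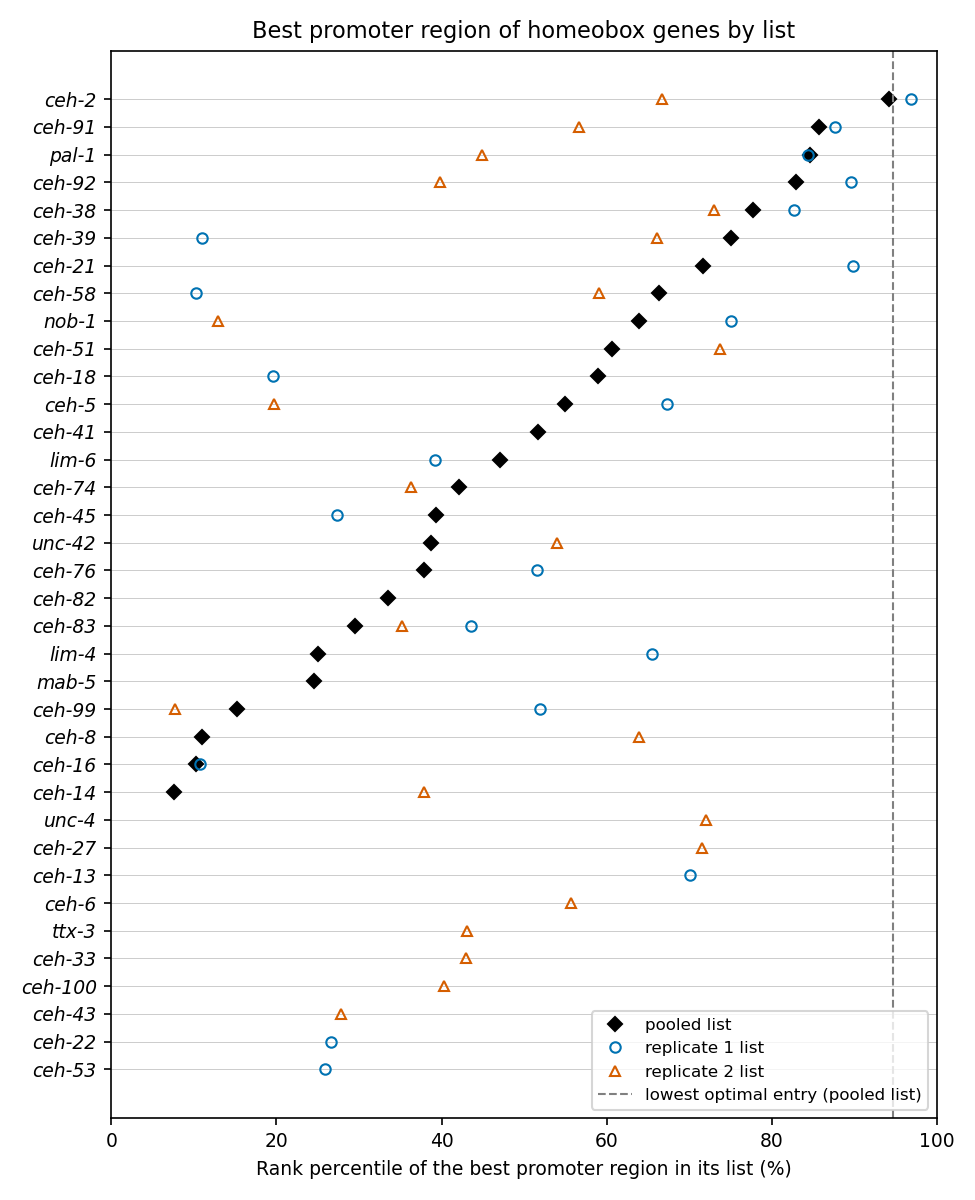
Rank percentile (horizontal axis, %) of the best promoter region in the pooled list (black diamonds) and in the lists of replicate 1 (blue circles) and replicate 2 (orange triangles), for the 36 homeobox genes with a region in any of them (vertical axis). The dashed line marks the lowest optimal entry in the pooled list; ceh-2 (94.2) is nearest to it and the other black diamonds are at 85.7 or lower.

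The CUT and ONECUT class, whose members combine a cut domain with a homeodomain, had pooled regions at 4 of 6 genes, with a median signal of 22.4. Of these 4 genes, 3 are neighbours on chromosome X. Among these ceh-39, one of the X-linked signals by which the embryo counts X chromosomes in sex determination, had a pooled signal of 23.1 at X:1856142-1856571, 185 bp upstream of its start, with 8.03 in replicate 1 (percentile 10.98) and 12.1 in replicate 2 (percentile 66.1). The region of ceh-21 (X:1853392-1853821, pooled signal 21.7, replicate 1 signal 22.03) had no counterpart in replicate 2, and its summit was 23 bp from the start of a neighbour, T26C11.9. The region of ceh-41 (X:1848333-1848762) had a pooled signal of 16.96 and a summit in an intron, and overlapped a region of replicate 2 with a signal of 12.1.

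On chromosome II the region of ceh-38 (II:6951383-6951812) had a pooled signal of 24.2, with its summit in an exon, 21 bp upstream of the nearest of 11 starts and 298 bp from that of malt-1. The region of replicate 1 that overlapped it had a signal of 7.73, at percentile 5.43, and that of replicate 2 a signal of 13.3, at percentile 73.03, the widest gap among homeobox regions found in both lists. Replicate 1 also had a higher region at -734 bp from a ceh-38 start, at percentile 82.7, which was its best for this gene. No promoter region was found in any list at ceh-48 or ceh-49.

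Among the 6 Hox genes pooled regions were found at 2, and both were far from the optimal level. The region of nob-1, a posterior gene of the Abdominal-B type, had a pooled signal of 19.4 at III:12084858-12085287, 757 bp upstream of its start. Replicate 1 had a region overlapping it with a signal of 14.5 (percentile 75.02), and replicate 2 had none there; its best promoter region of nob-1 was 109 bp downstream of a start, at percentile 12.96. The region of mab-5, which patterns the posterior body, had a pooled signal of 13.6, at percentile 24.5, and neither replicate list had a summit in the mab-5 window, although a region of replicate 2 with a signal of 7.69 overlapped it. The gene ceh-13, of the labial type, had a region in replicate 1 (signal 13.4, percentile 70.1) and in no other list. No region of these lists was found in the promoter windows of lin-39, which acts in the mid-body and vulva, of egl-5 in the tail, or of php-3, which neighbours nob-1. In the gene body outside the windows, the highest pooled signal was 28.1 in egl-5, 24.9 in nob-1, 12.1 in mab-5 and 11.6 in php-3. The gene bodies of lin-39 and ceh-13 had no such region.

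In the ParaHox, even-skipped and other ANTP class 5 of 21 genes had a pooled region. Besides ceh-2 and pal-1 these were ceh-51, which acts in early mesoderm (pooled signal 18.6, replicate 2 signal 13.4, no promoter region in replicate 1), ceh-5 (17.5; 12.9 in replicate 1 and 8.32 in replicate 2) and the engrailed gene ceh-16 (12.3; 8.02 in replicate 1 and none in replicate 2). In 13 genes of the class no list had a promoter region. The Distal-less homolog ceh-43 and the NK-2 gene ceh-27 had one in replicate 2, at percentiles 27.8 and 71.5, and ceh-22, an NK-2 gene of pharyngeal muscle, in replicate 1 at percentile 26.6.

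In the LIM class 3 of 6 genes had a pooled region, with a median signal of 13.6: lim-6, which acts in neurons that release GABA, had 16.3, lim-4 had 13.6 and ceh-14 had 12.1. Each of the 3 was found in 1 replicate list, lim-6 and lim-4 in that of replicate 1 and ceh-14 in that of replicate 2. No list had a promoter region at mec-3, which specifies touch receptor neurons, or at lin-11, and ttx-3, which specifies the AIY interneurons, had one in replicate 2 at percentile 43.1. In the paired-like class 3 of 11 genes had a pooled region, the goosecoid homolog ceh-45 (15.2), unc-42, which acts in interneurons (15.1), and ceh-8 (12.4), and unc-4 of motor neurons had one in replicate 2 at percentile 72.1.

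Of the 3 POU genes, ceh-18 had a pooled region at X:3857800-3858229, 218 bp upstream of its start, with a signal of 18.3, and the replicate 1 list held it at percentile 19.5. The POU gene ceh-6 had a region in replicate 2 at percentile 55.7, and unc-86, which acts in sensory neuron lineages, had none in these lists. No list had a promoter region at the 3 TALE genes ceh-20, ceh-40 and ceh-60. Among the 3 genes of the sine oculis class replicate 2 had one at ceh-33 (percentile 42.9), and no list had one at ceh-32 or ceh-34. Of the 20 ceh- genes not placed in a class 8 had a pooled region, with a median signal of 15.3. Besides ceh-91 and ceh-92 the highest of these was ceh-58, with a signal of 20.02 and a summit in an exon 62 bp downstream of the start, at percentile 10.3 in replicate 1 and 59.1 in replicate 2. The classes are small, so these counts rank nothing between them.

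**Figure D3:**
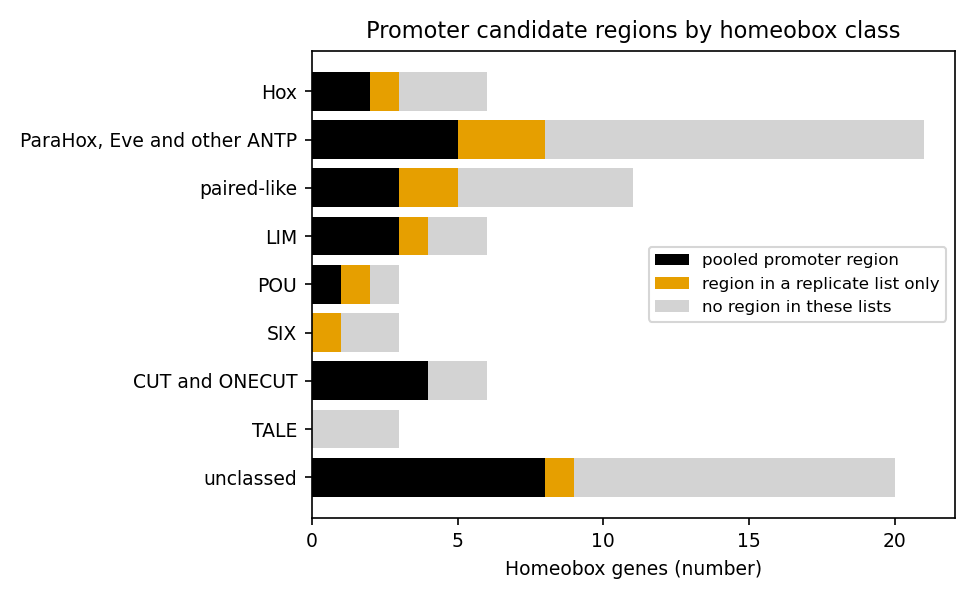
Number of homeobox genes (horizontal axis) by class (vertical axis). Black marks a pooled promoter region, orange a promoter region in a replicate list only and grey no promoter region in these lists. Black bars cover 4 of 6 CUT and ONECUT genes, 5 of 21 in the largest ANTP group and 0 of 3 TALE genes.

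Summits sat close to starts about as often as at other genes. The median distance to the nearest start of the gene was 200 bp against 246 bp for all genes with a region, and 7 of 26 summits were more than 500 bp away (26.9%, against 25.8%). Upstream of the start lay 19 of the 26 (73.1%, against 82.2%), and by annotation 16 summits were upstream of the gene, 8 in exons and 2 in introns. In 5 genes, ceh-21, ceh-38, ceh-76, ceh-92 and ceh-99, the summit also fell in the window of another gene, and for ceh-21 and ceh-76 the nearest start was that of the neighbour. The split by annotation and the shared summits were not counted over all genes, so they describe these 26 genes alone. The regions mostly have 1 width, the median being 430 bp. In 98.9% of pooled entries and 80.3% of optimal entries the summit was within 1 bp of the centre. How precisely a summit is placed cannot be told from these lists. At the window's edges the outermost summits counted were at -999 bp, for mab-5 (signal 12.98), and 192 bp, for pal-1, while those at -1055 bp from the ceh-43 start (15.8) and at 218 bp from that of ceh-2 (14.1) were not counted.

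**Figure D4:**
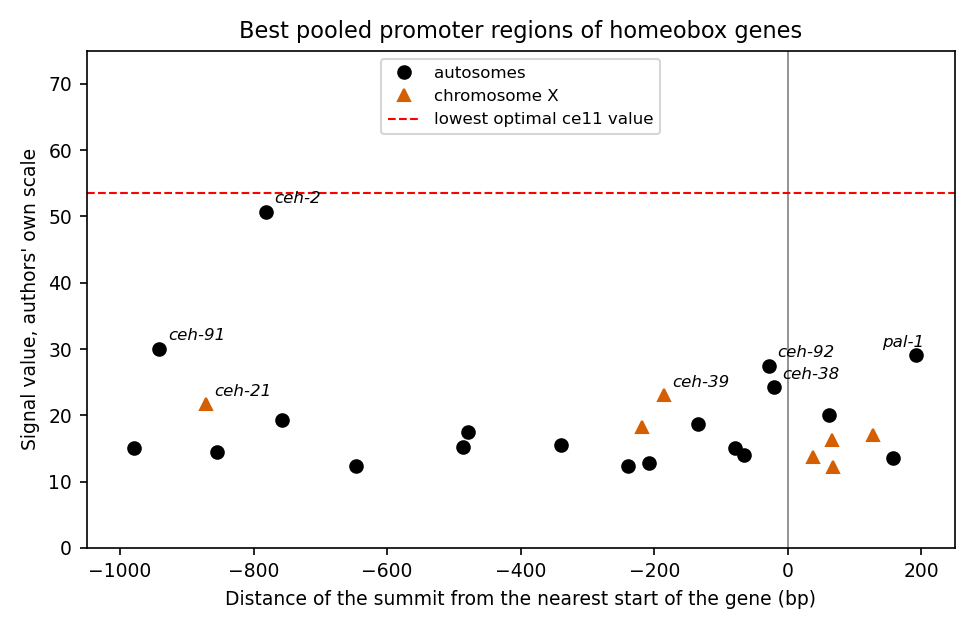
Signal value (vertical axis, the authors' own unit) against the distance of the summit from the nearest start of the gene (horizontal axis, bp, negative upstream) for the 26 homeobox genes with a pooled promoter region, on autosomes (black) and chromosome X (orange). The dashed line is the lowest optimal value, 53.5; every point is below it and, apart from ceh-2, none is above 30.1.

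Pooled homeobox regions were matched in both replicates about as often as regions of like rank among all genes. Of the 26 pooled regions 10 overlapped a region of both replicate lists by 1 bp or more (38.5%, interval 22.4 to 57.5). A further 9 overlapped 1 of replicate 1 alone, 7 overlapped 1 of replicate 2 alone and 0 overlapped neither. Among the regions of all 7272 genes these numbers were 1486 for replicate 1 alone, 1172 for replicate 2 alone and 482 for neither. Matches in 1 list alone thus made up a larger share of the 26 homeobox regions than of the 7272. These splits were not weighed by rank, and the 0 for neither, out of 26, is not read as a result. Of the 26 genes 18 had a promoter summit in replicate 1 (69.2%, against 78.3% of all genes with a pooled region) and 16 in replicate 2 (61.5%, against 74.5%). Over all genes with a region the share overlapping both lists was 56.8%, and it ranged from 8.08% in the lowest of 10 equal parts of the pooled list to 99.6% in the highest. With these parts weighed as the homeobox regions lie, the share of all genes was 38.1%, close to theirs. Among the 10 regions matched in both, 7 stood higher in the list of replicate 1 and 3, those of ceh-38, ceh-39 and ceh-58, higher in that of replicate 2. The gap in percentile was 67.6 for ceh-38, 55.1 for ceh-39 and 49.8 for ceh-92.

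Chromosome X carries 22 of the 79 homeobox genes, 27.8%, against 13.7% of all protein-coding genes. On it 7 of the 22 had a pooled promoter region (31.8%), against 24.3% of all genes there. On chromosome III it was 6 of 16 (37.5%, against 50.3%), on I 4 of 9 (44.4%, against 49.7%), on II 5 of 14 (35.7%, against 37.5%) and on V 4 of 13 (30.8%, against 25.97%). Chromosome IV had 0 of 5, namely ceh-19, ceh-48, ceh-53, ceh-88 and mec-3, against 38.5%. With these numbers of genes per chromosome no order between chromosomes can be read from the homeobox shares.

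**Figure D5:**
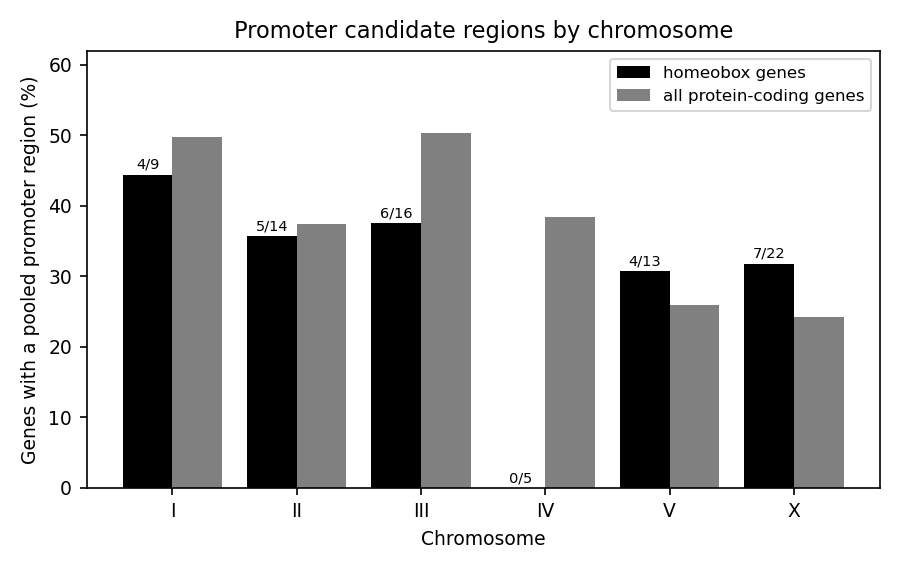
Share of genes with a pooled promoter region (vertical axis, %) by chromosome (horizontal axis) for homeobox genes (black, with counts above the bars) and all protein-coding genes (grey). Homeobox genes are below all genes on I, II, III and IV and above them on V and X, with 4 to 7 genes behind each black bar other than that of IV, which is at 0.

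One optimal peak lay inside a homeobox gene, outside its promoter window (1.27%, against 1.1% of all genes). It was at the 3′ end of ceh-8, a paired-like gene, at I:8245390-8245819, with a pooled signal of 70.2 and with 41.3 and 30.6 in replicates 1 and 2, at percentiles 97.2 and 95.8. Its summit was in an exon of ceh-8, inside or within 200 bp of the noncoding gene ZK265.11 and 642 bp upstream of the collagen gene col-63, the nearest protein-coding start. At the ceh-8 promoter itself the pooled signal was 12.4, at percentile 10.9. Pooled regions of any level, optimal ones included, lay in the gene body outside the window in 34 of the 79 genes (43.04%, against 33.3%). Homeobox genes are longer, with a median of 3248 bp against 2027 bp. The highest of these after ceh-8 were in ceh-43 (41.01) and ceh-38 (33.7), which were named after their values were seen.

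Optimal peaks were found within 5 kb of a start of 4 further homeobox genes. The share of all genes within that distance was not computed, so this count cannot be called many or few. The nearest to a homeobox start other than that in ceh-8 were 2316 bp downstream of the ceh-12 start (signal 54.2, near the collagen gene col-54 and a tRNA gene) and 2434 bp upstream of that of ceh-19, at the Argonaute gene csr-1 (signal 102.3, 230 bp upstream of its start). Another stood 3369 bp downstream of the ceh-5 start (70.5), where the nearest protein-coding start, that of ocrl-1, was 2532 bp away, and the fourth was 4111 bp downstream of the ceh-10 start, at the polymerase gene polq-1 (69.4, 2 bp from its start). The median distance from a homeobox gene to the nearest optimal summit was 34525 bp, against 36520 bp for all genes, so the medians were close. The lower quartile of this distance was 17774.5 bp for homeobox genes, against 11962 bp for all genes.

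The strings at the summits were counted on both strands in windows of 200 bp, with the best regions of all 7272 genes as background. The forkhead string GTAAACA was in 0 of the 26 homeobox windows, against 2.83%. E2F strings were TTCCCGC, the variant TTGGCGC, the variant TTGCCGC and the variant TTCGCGC, all of which share their last letters. At least 1 of them was in 7 (26.9%, against 13.8%), those of ceh-91, ceh-92, ceh-39, ceh-8, ceh-83, ceh-99 and unc-42. In windows of 100 bp it was 3 (11.54%, against 8.29%). The core string TAATTA, recognized by many homeodomain proteins, was in 2 (7.69%, against 12.7%), those of ceh-45 and ceh-58. The homeobox windows had a mean GC content of 42.5% against 37.1%, which moves with strings rich in G and C; its part in the E2F count was not tested. A match is a description of letters and not a binding site.

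Counts and levels for other transcription factor genes are given side by side, without a test. Among 269 nuclear hormone receptor genes 78 had a pooled promoter region (28.996%) and 3 an optimal one (1.12%), with a median signal of 15.2. The shares of all genes were 36.4% and 5.29%. Among 15 forkhead genes 8 had a pooled region (53.3%) and 0 an optimal one, with a median of 18.5. UNC-130's own gene had a pooled signal of 22.98 at percentile 74.8 with a region in replicate 1 alone. A further 19 homeobox genes outside the set had 8 pooled regions (42.1%), 0 optimal ones and a median of 20.1. Of these 8 genes, 7 had a promoter summit in replicate 1 (87.5%, interval 52.9 to 97.8) and 8 in replicate 2 (100%, interval 67.6 to 100). The shares were 69.2% and 61.5% in the 26 genes of the set, and 78.3% and 74.5% in all genes with a pooled region. With 8 genes no difference is read from these shares. The highest signals among the 8 genes were those of duxl-1 (25.9), the Meis-type TALE gene unc-62 (21.9, at V:4502354-4502783) and dve-1 (21.9). These 3 signals lie within the range over the 26 homeobox regions.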

How the data were processed

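The authors deposited region lists for each replicate, for both replicates pooled and for optimal peaks past an irreproducible discovery rate threshold, on the ce10 and ce11 builds, per the file listings among the labels. Signal in these deposited lists is the peak caller's value for a region, and the summit is stored as an offset in bases. Aligner, peak caller and threshold were not given in the sources used here. In ce11, the 1168 optimal entries equal in number the pooled entries at or above 53.5, the lowest optimal value. Alignments and input libraries were not used here. Of ce10 the lowest optimal value (46.8, of 1485 entries) was used, as a cut-off on the ce11 pooled list. Whether the ce10 and ce11 lists share a scale is not given, and no coordinates were converted. Columns without a sample or pool numbered 0.

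Region ends lay within the chromosome lengths of WBcel235, the same assembly as ce11. Coordinates are 1-based. A summit counted for every promoter window it fell in, and 12 mitochondrial coding genes were left out of the background. Gene assignment was tested on simulated data. Python 3.11.15, pandas 2.3.3 and statsmodels 0.14.6 were used. Members, lists and classes were chosen with earlier results of these data known, so shares and medians are given beside those of all genes, with no test. The classes were assigned from general knowledge. Named genes were members with an optimal summit, the 12 of highest pooled signal, the 6 Hox genes, pal-1, the best of each class, the 3 of widest rank gap and the summits at the window's edges; others were named after their values were seen, where a count was small or a string was found. Alternatives were other windows, the nearest start only, each replicate alone, stricter and looser thresholds, other overlap rules and other string windows. Some alternatives were chosen after seeing the data: the ce10 value, ceh-44, and genes with 1 start, with a window of their own or off chromosome X.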

Additional observations from a re-analysis of the deposited data

How the results depend on the processing

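The count of 0 homeobox genes with an optimal promoter peak was also 0 with windows of 500 and 2000 bp upstream, the nearest start only, the upper 50% of the optimal entries, genes with 1 start, and ceh-44 included. It was 1, through ceh-2, with the pooled list taken to 2 times the optimal number (against 9.29% of all genes). At the lowest ce10 value, a cut-off from another list, it was also 1 (against 6.46%). With either replicate left out it was 0 to 1. The 26 genes with a pooled region became 15 of 54 among genes with 1 start (27.8%, against 30.9%), and 21 to 23 with a replicate left out. Genes with a region in both replicates numbered 7 with 500 bp upstream (8.86%, against 16.7% of all genes) and 17 with 2000 bp (21.5%, against 30.9%). The median signal was 9.91 to 10.9 in the replicates' own lists, whose scale differs, and the median distance was 340 bp with 2000 bp upstream and 126 to 250 bp with a replicate left out. In windows of 100 bp the E2F strings were in 3 regions (11.54%, against 8.29% over all genes, where 200 bp gave 26.9% against 13.8%) and TAATTA in 1 (3.85%, against 6.39%). In windows of 400 bp TAATTA was in 4 (15.4%, against 23.1%) and GTAAACA in 1 (3.85%, against 5.36%). Of the 47 values 34, several of those above included, stayed within 1.5 times the count or within the spread between replicates. The other 13 moved and are among the values given above. Why they moved was not tested beyond the size of the window or list. For medians this spread is the standard deviation of the 2 values with a replicate left out. Those 2 values are also among the ones judged by it, so staying within it says little about them. No paired analysis was possible because there is 1 group. With read counts absent, a gene with no region may have signal below the lists' lowest value.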
